A study of Mus musculus with 8 samples.

Results

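The comparison described here is that of LSK cells from ACKR1-deficient mice with LSK cells from wild-type mice, and it rests on the 4 of the 8 arrays of the series whose titles name LSK cells of bone marrow: 2 deficient and 2 wild type. LSK cells are marrow cells that lack the antigens of mature lineages and carry Sca1 (the product of Ly6a) and cKit (the product of Kit). All mice were female, 12 weeks old and of strain C57/Bl6. The deficient line (ACKR1-KO) had been backcrossed to C57Bl/6J for over 12 generations and was bred from heterozygous parents, so that deficient and wild-type mice were littermates, kept under specific pathogen-free conditions. The labels name no treatment. Marrow was flushed and the cells were sorted by flow cytometry before RNA extraction. The labels give neither the form of the Ackr1 allele nor the number of mice behind an array, so a p-value measures the spread between these arrays, which may be technical. The other 4 arrays hold granulocyte-macrophage progenitors (GMP), sorted as lineage-negative, Sca1-negative, cKit-positive, CD34-positive and CD16/32-positive cells of the same genotypes, and serve here as a second population.

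The LSK population holds the haematopoietic stem cells and the multipotent progenitors from which all blood lineages arise. ACKR1 is an atypical chemokine receptor: it binds inflammatory chemokines without the G protein signalling of classical receptors, and in marrow it is known from erythroid cells and vessel endothelium. Neutrophils form in marrow through ordered stages. Primary granule proteins such as myeloperoxidase are made first, in promyelocytes, and secondary and tertiary granule proteins such as lactoferrin follow in myelocytes and later cells under the transcription factor C/EBP epsilon. Red-cell precursors in turn make haem, globin and the proteins of the red-cell membrane under GATA1 and KLF1. Both programmes are low in stem cells.

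Levels are given as the log2 processed signal of a probe minus the log2 75th percentile of its array, so a level of 0 equals that percentile, and a difference of 1 is a 2-fold difference. Levels of different probes are not compared. Values are listed for replicate 1 and then replicate 2. Differences are deficient minus wild type with their standard error (SE, n = 2 arrays per genotype) from a limma fit to all 8 arrays, and "called" means an adjusted p (Benjamini-Hochberg over all features) under 0.05. Deficient LSK replicate 2 was a weak array: 34.3% of its spots were well above background, against 69.7% to 73.1% on the other LSK arrays, and its 75th percentile of signal was 24.6 units, against 281 to 770. Its lowest level was -3.49, so a gene with a lower level in wild type reads higher on that array whether or not its RNA does. This applied to 2874 features on both wild-type arrays, of which 278 were well above background on deficient replicate 2. The array correlated with the other LSK arrays at r = 0.70 to 0.784 over 28078 features, while the other LSK arrays correlated with one another at 0.921 to 0.948. Results are therefore given with and without it. Deficient arrays lay in column 1 and wild-type arrays in column 2 of a single slide, so slide column and genotype cannot be told apart, and same-numbered LSK arrays shared slide row 1 or row 3.

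The targeted gene gave no check of the labels. Ackr1 read -0.66 and -1.05 in wild type and -0.70 and -0.85 in deficient LSK, a difference of 0.08 ± 0.61 (SE; limma, adjusted p = 0.954). The ranges overlapped, the probe was not well above background on deficient replicate 2, and whether it lies within the deleted sequence is not given in the sources used here. Of the sort antigens, Kit, the stem cell factor receptor, read 4.31 and 5.09 in wild type and 4.19 and 1.69 in deficient cells. Ly6a, which encodes Sca1, read 1.83 and 3.79 in wild type and 0.37 and -1.07 in deficient cells, a difference of -3.16 ± 0.98 (SE, limma adjusted p = 0.480) that was -2.45 without deficient replicate 2. Both genes were thus lowest on deficient replicate 2, where Ly6a was not well above background. Ly6a did not overlap between the genotypes, and neither gene passed the test. Cd34 read 7.56 and 7.72 in wild type and 6.88 and 6.52 in deficient cells. Of the stem and progenitor genes, Hlf, a transcription factor of stem cells, read 4.32 and 4.05 against 3.08 and 5.13, and Flt3, a cytokine receptor of multipotent progenitors, read 4.65 and 5.65 against 4.84 and 1.77. Mecom, another stem cell factor, read -2.32 and -2.10 against -1.90 and -2.25. LSK genes were therefore present in both genotypes. The 10 measured antigens of the lineage depletion had a median difference of 0.52, or 0.03 without deficient replicate 2. The neutrophil antigen gene Ly6g was not among the annotated probes.

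Deficient LSK cells had higher RNA levels of 67 of 28078 features tested, which is 0.239%, and no feature was called lower (0%, limma, adjusted p under 0.05). The calls with the largest differences were of genes of late neutrophil maturation and of red cells. They include the granule genes Mmp8, Retnlg, Ngp, Camp and Ltf, the calprotectin genes S100a8 and S100a9, the haem synthesis gene Alas2 and the red-cell membrane genes Rhd and Slc4a1. Differences ran from 3.92 to 11.08 on the log2 scale with a median of 6.12. Of the 67, 52 have a symbol and 15, with differences of 4.05 to 8.20, do not. Median levels of the 67 were -5.89 and -5.41 on the wild-type arrays and 1.30 and 0.40 on the deficient arrays.

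All 67 were well above background on deficient replicate 1 and 53 also on deficient replicate 2, whereas 30 were so on no wild-type array, 17 on 1 and 20 on both. Without the weak array the median over the 67 was 6.14, and that array alone against wild type gave 5.84. Both deficient arrays entered the fit that called the 67. A high value on each is therefore partly a condition of the call and not separate evidence, and the same holds for the slide-row values that follow. Within slide row 1 the median was 6.17 and the smallest difference 3.84, and within row 3 they were 5.78 and 3.53. The calls did depend on single arrays. With deficient replicate 2 left out, 0 features were called in either direction (limma, 1104 at an unadjusted p under 0.05, against 2480 with all arrays), the smallest adjusted p was 0.0557 and 22 features had one under 0.1, and fitting only the 3 LSK arrays left called 262 higher and 30 lower. Leaving out wild-type replicate 1 gave 2 higher and 0 lower, and wild-type replicate 2 gave 17 and 0. Leaving out deficient replicate 1, so that the weak array stood alone, gave 1693 and 1133.

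Across the whole table the genotypes did not overlap for 4617 features that were higher in deficient cells (16.4%) and for 5924 that were lower (21.1%). The median difference over all features was 0.11, and -0.08 without deficient replicate 2. Scaling by the array median in place of the 75th percentile moved that median to -0.46. In the plot of both deficient arrays against wild type, the called features lie far up on both axes, both of which entered the call.

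**Figure D1:**
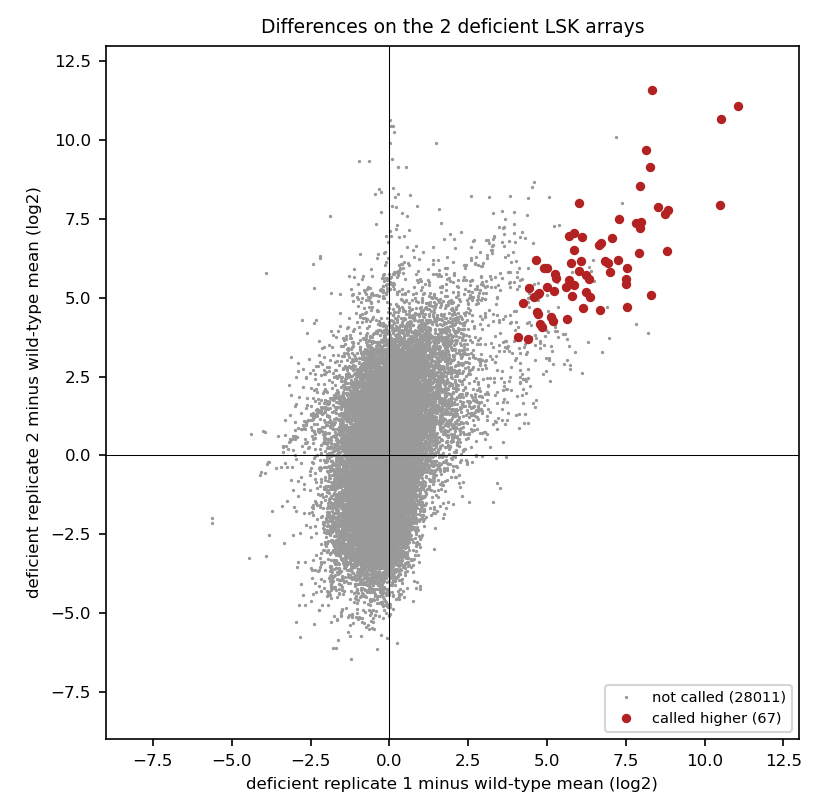
Difference from the wild-type LSK mean for each feature on deficient LSK replicate 1 (horizontal axis) and on the weak deficient LSK replicate 2 (vertical axis), both on the log2 scale, with the 67 called features marked. The called features lie above 0 on both axes, with a median of 6.14 on the first and 5.84 on the second. Both arrays entered the call, so this position is partly set by the selection.

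Secondary and tertiary granule genes made up the largest group of calls. Of 21 measured, 13 rose (background 0.239% called), 20 had a difference above 0, and 19 were higher without overlap, that is, with each deficient array above each wild-type array (background 16.4%). The median difference was 6.48, against 0.11 over all features, and it was 7.24 without deficient replicate 2, 7.22 within slide row 1 and 5.84 within row 3. Of the 13 calls, 2 were left without wild-type replicate 1, 9 without wild-type replicate 2 and 0 without deficient replicate 2, and there were 16 without deficient replicate 1. This list and the others were chosen with earlier results of these data known and so are a description of the change, not separate evidence of it. The levels of such genes across the 4 arrays are shown in the plot of granule genes by array.

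The 250 bases before the start sites of 4 of these genes are shown as examples. They are not the 4 with the largest differences: Retnlg and Itgb2l, which rose more than S100a9 and Ltf, are left out. Capitals mark the letters TTNCNNAA or TTNNGNAA (each the reverse complement of the other, so both strands are covered), a pattern of the type that C/EBP factors bind. Sequences are from RefSeq on GRCm38.p6, 5′ to 3′ on the strand of the gene: Ltf at chr9:111019042-111019291 (plus strand), Ngp at chr9:110419558-110419807 (plus), Mmp8 at chr9:7558179-7558428 (plus) and S100a9 at chr3:90695722-90695971 (minus).
Ltf: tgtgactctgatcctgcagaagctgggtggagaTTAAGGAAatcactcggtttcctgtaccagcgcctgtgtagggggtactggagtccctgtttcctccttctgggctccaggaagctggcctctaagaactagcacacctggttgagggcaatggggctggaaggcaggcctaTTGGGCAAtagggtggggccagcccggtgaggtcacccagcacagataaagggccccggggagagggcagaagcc
Ngp: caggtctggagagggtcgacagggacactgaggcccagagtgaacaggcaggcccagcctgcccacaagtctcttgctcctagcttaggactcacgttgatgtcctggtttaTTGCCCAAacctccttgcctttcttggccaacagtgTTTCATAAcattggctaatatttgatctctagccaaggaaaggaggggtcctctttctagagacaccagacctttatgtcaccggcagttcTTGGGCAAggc
Mmp8: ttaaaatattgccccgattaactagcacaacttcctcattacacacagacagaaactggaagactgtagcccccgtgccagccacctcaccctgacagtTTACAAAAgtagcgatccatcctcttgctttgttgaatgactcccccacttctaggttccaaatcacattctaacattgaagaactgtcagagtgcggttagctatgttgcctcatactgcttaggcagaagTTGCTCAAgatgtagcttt
S100a9: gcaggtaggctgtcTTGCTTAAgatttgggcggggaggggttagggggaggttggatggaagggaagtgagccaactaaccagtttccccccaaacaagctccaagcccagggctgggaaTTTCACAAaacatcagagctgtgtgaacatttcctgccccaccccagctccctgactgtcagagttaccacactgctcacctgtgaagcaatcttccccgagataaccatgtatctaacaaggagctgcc
A match was present in 9 of the 11 called granule genes with a sequence in the table (81.8%), in 20 of 41 called genes of any kind (48.8%) and in 9968 of all 27018 genes (36.9%). Camp and Ceacam10 had none in this window. The 4 genes shown held 2 or 3 matches each and so are not typical of the group. Of those not shown, Chil3 held 3, and Retnlg, Itgb2l, Chil1 and S100a8 held 1 each. A match is a run of letters and not evidence of binding.

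Mmp8, the neutrophil collagenase, read -6.59 and -7.88 in wild-type and 3.83 and 3.85 in deficient cells, and neither wild-type array measured it well above background. The mean was at least 876-fold higher in deficient cells, where "at least" sets the deficient mean against the lowest signal measurable above background on each wild-type array (fitted difference 11.08 ± 0.82, SE, limma adjusted p = 0.00164). Retnlg, a resistin-like secreted protein of neutrophils, read -5.45 and -5.27 against 5.18 and 5.32 (10.61 ± 0.76, adjusted p = 0.00164). For both genes the 2 deficient arrays lay within 0.2 of each other and more than 10 above either wild-type array.

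Lactoferrin (Ltf), the iron-binding protein of secondary granules, was well above background on all arrays and read -2.50 and -2.35 in wild type and 6.40 and 5.35 in deficient cells (8.30 ± 0.77, SE, limma adjusted p = 0.00595). Camp, the precursor of the cathelicidin antimicrobial peptide, read -1.62 and 0.09 against 7.52 and 8.39 (8.72 ± 0.99, adjusted p = 0.0112). Ngp, a neutrophilic granule protein, read -4.41 and -2.99 against 4.63 and 7.90 (9.97 ± 1.10, adjusted p = 0.0112). The deficient arrays stood above wild type by several log2 units in each case, with Ngp the least alike between them. Itgb2l, an integrin beta subunit-like gene of neutrophils, read -6.59 and -7.92 against 3.24 and 0.70 (9.22 ± 1.03, adjusted p = 0.0112) and was at least 239-fold higher.

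The calprotectin subunits S100a9 and S100a8, calcium-binding proteins that are among the most abundant of the neutrophil cytosol, were measurable in wild-type LSK. S100a9 read 0.33 and 2.72 in wild type and 9.67 and 11.20 in deficient cells (8.91 ± 1.05, SE, limma adjusted p = 0.0112). S100a8 read -1.95 and 0.59 against 7.25 and 7.86 (8.24 ± 0.95, adjusted p = 0.0112). The chitinase-like lectin Chil3 (Ym1) read -0.40 and -0.45 against 6.82 and 5.78 (6.73 ± 0.80). For these genes the wild-type arrays were above background, so the fold does not depend on a floor. Chil1 rose by 6.48, at least 68.9-fold, and Ceacam10 by 4.97, the latter well above background on deficient replicate 1 only.

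Wfdc21, a protein with a whey acidic protein domain, read -4.34 and -3.66 against 3.82 and 3.37 (7.60 ± 0.76, SE, limma adjusted p = 0.00851). Hp, haptoglobin, which neutrophil precursors store in secondary granules, read -1.68 and 0.20 against 5.35 and 5.41 (6.12 ± 0.74, adjusted p = 0.0121). Granule genes outside the calls included Lcn2, which encodes the siderophore-binding lipocalin, at 0.22 and 0.02 against 5.15 and 4.03 (4.47, adjusted p = 0.0615). Padi4, a histone-citrullinating enzyme of neutrophils, was the 1 member with a negative difference (-2.78). Stefins are cysteine protease inhibitors of neutrophils that have near-identical copies and may share probes. Of 5 measured, 1 was called (background 0.239%) and all 5 were higher without overlap (background 16.4%). Over the 2 well above background on all 4 LSK arrays the median was 2.23, against 4.53 over all 5. The call was Cstdc4, which was well above background on neither wild-type array. It read -6.59 and -7.92 against 0.70 and -0.06 (7.58 ± 0.90, limma adjusted p = 0.0112), at least 76.3-fold higher.

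**Figure D2:**
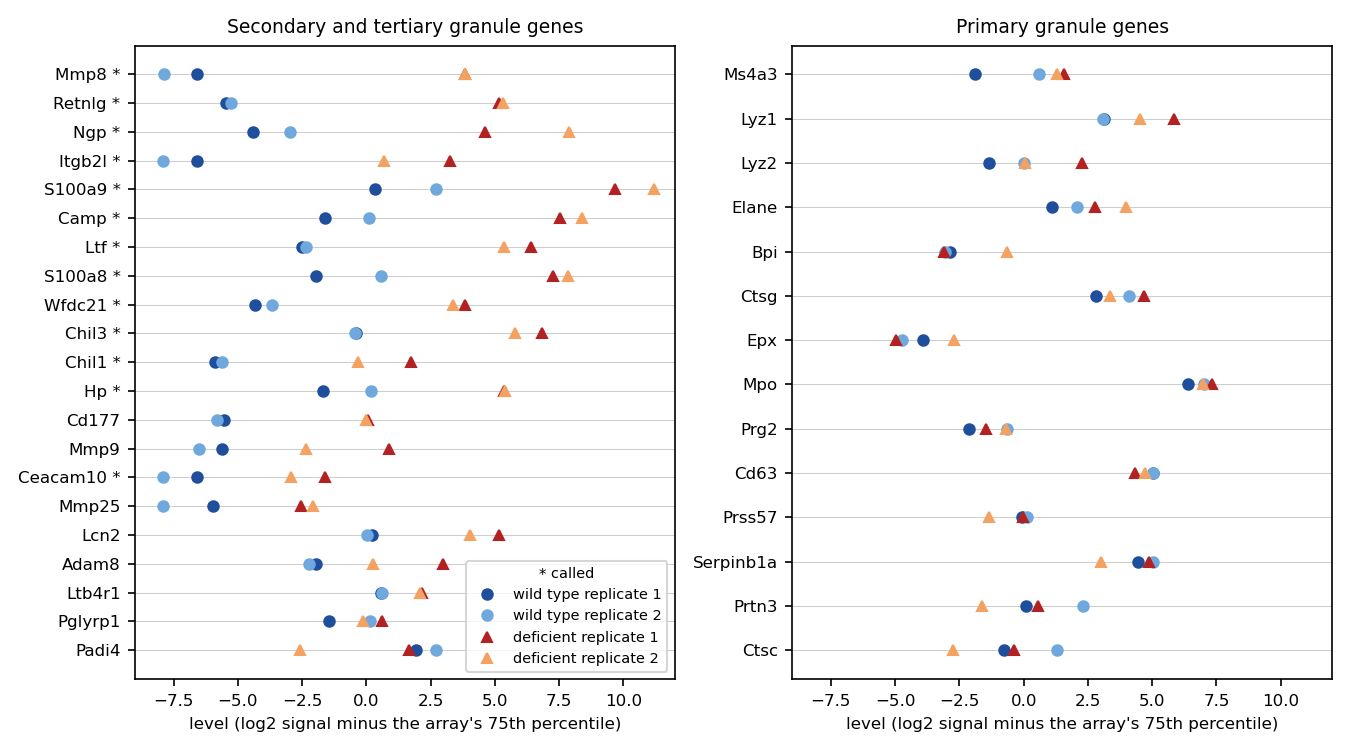
Levels (log2 signal minus the 75th percentile of the array) of secondary and tertiary granule genes (left) and primary granule genes (right) on the 4 LSK arrays, ordered by difference, with called genes starred. All but 2 of the 21 genes on the left lie higher on both deficient arrays, with Pglyrp1 overlapping and Padi4 in the opposite direction, while most primary granule genes such as Mpo overlap.

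Primary granule genes, which precede these in maturation, gave no call. Of 14 measured, 0 were called, 9 had a difference above 0 and 5 below, and the median was 0.47 (0.05 without deficient replicate 2, and -0.11 with median scaling). Mpo, myeloperoxidase, read 6.38 and 7.02 in wild type and 7.32 and 6.98 in deficient cells (0.44 ± 0.64, SE, limma adjusted p = 0.748), with overlapping ranges. Elane, neutrophil elastase, read 1.10 and 2.08 against 2.76 and 3.98 (1.78 ± 0.73, adjusted p = 0.550). Ms4a3, a membrane protein of early granulocytes, had the highest difference of the list, at -1.88 and 0.58 against 1.59 and 1.31 (2.10, adjusted p = 0.550). Ctsc, the protease that activates the serine proteases of these granules, had the lowest (-1.86). Neither passed the test.

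Of 31 measured neutrophil surface and innate receptors, 7 rose (background 0.239%) and 26 had a difference above 0. Without overlap, 19 were higher (background 16.4%). The median was 1.85, and 2.14 without deficient replicate 2. Over the 17 of these genes well above background on all 4 LSK arrays it was 1.2, so the list median rests partly on genes near background on some array. Sirpb1b, a signal regulatory protein, read -6.37 and -7.57 against 1.84 and -0.48 (7.65 ± 1.09, SE, limma adjusted p = 0.0260), at least 97.7-fold higher. The related gene Sirpb1c rose by 5.71 but was well above background on deficient replicate 1 only, so no fold is given. These 2 are near-identical family members and may share probe signal, as may Mrgpra2a (4.91) and Mrgpra2b (5.18), receptors of the Mas-related family.

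Fpr2, a receptor for formylated peptides, read -6.59 and -5.85 against 2.08 and -1.14 (6.69 ± 1.05, SE, limma adjusted p = 0.0427), but on deficient replicate 2 it was not well above background, so no fold is given. C5ar1, the receptor for the complement fragment C5a, read -6.59 and -7.92 against -1.40 and -0.19 and was at least 35.2-fold higher. Cxcr2, the receptor by which neutrophils leave marrow towards CXCL chemokines, read -3.65 and -3.43 against 1.30 and 0.53 (4.46 ± 0.63, adjusted p = 0.0256). Cxcr2 was the only one of 15 measured chemokine receptors to be called (background 0.239%). Fpr1 (3.90, adjusted p = 0.0707) and the neutrophil antigen Cd177 (5.69, adjusted p = 0.0707) lay above wild type on both deficient arrays without passing, whereas Csf3r, the receptor for granulocyte colony-stimulating factor, read 6.74 and 6.01 against 6.55 and 8.62, with overlap.

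Among 14 transcription factors of the granulocyte-monocyte programme, 1 rose (background 0.239%). Cebpe, which encodes C/EBP epsilon, read -1.40 and -1.03 in wild type and 3.52 and 3.94 in deficient cells (4.94 ± 0.63, SE, limma adjusted p = 0.0161), well above background on all arrays. The list's median difference was -0.45 (0.10 without deficient replicate 2), and 11 of 14 differences were below 0. Gfi1, a repressor needed for granulocyte formation, read 3.54 and 3.12 against 3.66 and 0.54. Of 7 subunits and partners of the phagocyte NADPH oxidase, 0 were called and the median was -0.12, with Cybb highest (4.22 ± 1.04, adjusted p = 0.298).

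In these bulk samples, more cells of a type and more RNA per cell cannot be told apart. The summed level of the 21 granule genes (log2 of their summed signal, on the same scale) was 3.38 and 4.46 in wild type and 10.6 and 11.7 in deficient cells. Monocyte and macrophage genes gave 0 calls of 19, with 11 higher without overlap (background 16.4%). Their median was 1.03 (1.26 without deficient replicate 2). Their summed level was 4.52 and 5.08 in wild type and 6.13 and 4.93 in deficient cells, which overlap. Fn1, fibronectin, was highest of these (-3.08 and -2.26 against 4.07 and 1.91; 5.66 ± 1.02, SE, limma adjusted p = 0.0780), followed among named markers by Ccr2, the receptor of inflammatory monocytes (3.58, adjusted p = 0.311). Mature cells in the sorted fraction were not counted, and their part in these differences was not tested.

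Red-cell genes were the second group. Of 25 measured genes of the red-cell membrane and its antigens, 6 rose (background 0.239%). A difference above 0 was seen in 20, and 15 were higher without overlap (background 16.4%). The median was 2.01, or 2.25 without deficient replicate 2, and 3.06 in slide row 1 and 2.58 in row 3. Over the 11 of these genes well above background on all 4 LSK arrays it was only 0.33, so the list median rests largely on genes near background on some array. The number called was 0 without wild-type replicate 1, 1 without wild-type replicate 2, 11 without deficient replicate 1 and 0 without deficient replicate 2. All 10 measured globins and globin partners had a difference above 0 (8 without deficient replicate 2), with 1 called. Of 18 genes of haem synthesis and iron uptake 1 was called.

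Start-site sequences of 2 of the called genes are shown for comparison with the granule genes. Capitals mark AGATAA or its reverse complement TTATCT, the core of a GATA site. They lie at chrX:150547167-150547416 (plus strand) for Alas2 and chr6:41704326-41704575 (minus) for Kel, on GRCm38.p6 from RefSeq.
Alas2: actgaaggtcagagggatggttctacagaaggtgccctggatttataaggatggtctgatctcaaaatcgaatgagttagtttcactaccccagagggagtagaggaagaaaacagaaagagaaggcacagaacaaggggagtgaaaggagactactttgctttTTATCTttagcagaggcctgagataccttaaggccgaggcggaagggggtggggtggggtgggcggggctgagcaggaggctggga
Kel: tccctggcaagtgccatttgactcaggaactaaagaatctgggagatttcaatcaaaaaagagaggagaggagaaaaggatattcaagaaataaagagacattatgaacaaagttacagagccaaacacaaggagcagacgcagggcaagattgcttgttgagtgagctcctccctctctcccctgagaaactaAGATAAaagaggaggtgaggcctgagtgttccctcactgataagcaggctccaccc
Of the 8 called genes of these red-cell lists, 5 had a sequence, and 3 of these held the motif (60%), against 8 of 41 called genes (19.5%) and 2771 of 27018 genes (10.3%). None of the 5 held the C/EBP-type pattern, and 3 of the 11 granule genes held the GATA letters (27.3%).

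Alas2, the erythroid enzyme that starts haem synthesis, read -4.74 and -2.96 in wild type and 4.68 and 4.03 in deficient cells (8.20 ± 0.97, SE, limma adjusted p = 0.0112; 8.52 without deficient replicate 2). The remaining genes of haem and iron handling moved less: Fech, the last enzyme of the pathway, read 1.98 and 2.10 against 4.46 and 5.24 (2.81 ± 0.70, adjusted p = 0.306), and the mitochondrial iron importer Slc25a37 read 3.65 and 3.64 against 5.61 and 5.23 (1.77, adjusted p = 0.537). Both were higher on each deficient array without passing the test. The list's median was 0.50, and it was -0.07 with median scaling.

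Slc4a1, the band 3 anion exchanger, was measurable throughout, at -0.97 and -1.28 in wild type against 4.64 and 4.98 in deficient cells (5.94 ± 0.62, SE, limma adjusted p = 0.0105). Rhd, which encodes the Rh antigen, read -5.61 and -3.46 against 3.44 and 2.88 (7.69 ± 1.23, adjusted p = 0.0477). In both genes the deficient arrays were within 0.6 of each other. The membrane skeleton genes Add2 (beta-adducin, 5.94) and Ank1 (ankyrin, 4.74) and the Kell antigen gene Kel (5.65) also rose, and the water channel gene Aqp1 (4.20, adjusted p = 0.0841) did not pass the test.

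Hbb-bt, an adult beta-globin, read 2.42 and 2.95 in wild type and 7.98 and 8.31 in deficient cells (5.46 ± 0.78, SE, limma adjusted p = 0.0263). Hba-a2, an alpha-globin, read 0.51 and 5.15 against 10.01 and 12.93 (8.64 ± 1.45, adjusted p = 0.0615), with the wild-type arrays themselves 4.64 apart. Hba-a1 had a difference of 7.68 and did not pass, and near-identical globin copies may share probes. The summed level of the 10 globin genes was 3.28 and 5.76 in wild type and 10.5 and 13.03 in deficient cells, so the ranges did not overlap. The regulators of erythroid and megakaryocyte cells gave 0 calls of 14 and a median of -0.47 (-0.02 without deficient replicate 2), with Klf1, the erythroid Krüppel-like factor (2.22 ± 0.69, adjusted p = 0.480) and Gata1 (1.79 ± 0.65, adjusted p = 0.550) higher without overlap. Their part in the red-cell differences, like that of red-cell precursors in the sorted fraction, was not tested.

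**Figure D3:**
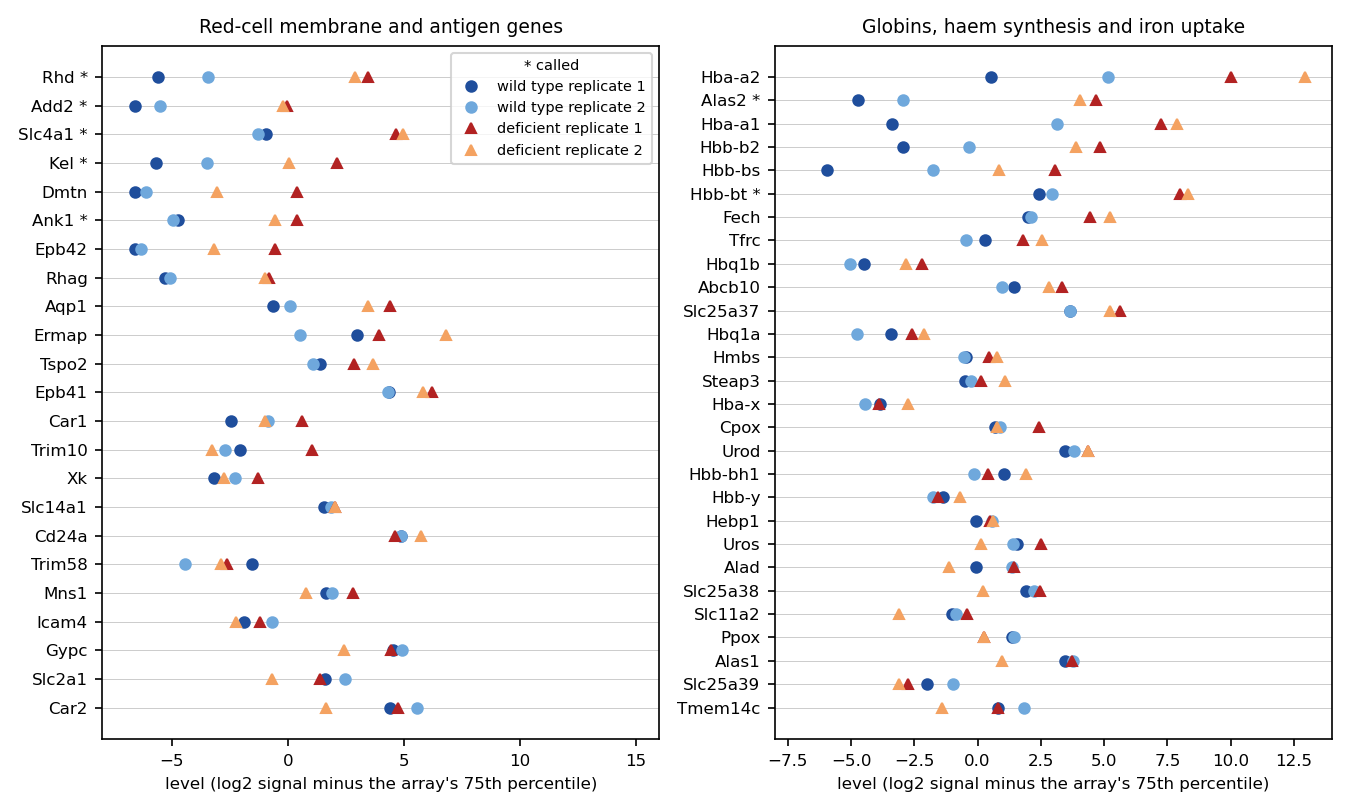
Levels (log2 signal minus the 75th percentile of the array) of the red-cell membrane and antigen genes reported here (left) and of globins and genes of haem synthesis and iron uptake (right) on the 4 LSK arrays, ordered by difference, with called genes starred. Slc4a1 and Hbb-bt lie higher on both deficient arrays, while in the lower rows of each panel the genotypes overlap or the weak deficient replicate 2 lies lowest.

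Other lineages gave single calls. Ms4a1, which encodes the B-cell antigen CD20, read -6.59 and -5.30 in wild type and 0.39 and -0.35 in deficient cells (5.97 ± 0.87, SE, limma adjusted p = 0.0300). It was the 1 call among 22 B-lineage genes (background 0.239%), whose median was 0.99 (0.89 without deficient replicate 2). Without overlap, 9 of the 22 were higher (background 16.4%). Over the 12 well above background on all 4 LSK arrays the median was also 0.99. The summed level of the 22 was 4.49 and 4.46 in wild type and 5.23 and 5.11 in deficient cells. The surrogate light chain gene Vpreb3 had a difference of 4.07 ± 0.70 and the transcription factor gene Spib of 4.72 ± 0.82 (both adjusted p = 0.0688). Mmrn1, multimerin of platelets and endothelium, read -5.89 and -6.03 against 1.55 and -0.36 (6.56 ± 0.76, adjusted p = 0.0112), at least 73.3-fold higher. The other 19 megakaryocyte and platelet genes measured were not called, the list's median was 0.07, and Pf4 (platelet factor 4) read 1.28 and 1.94 against 1.64 and -0.05.

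Lists of plasma cells (11 genes, median -0.48), T and NK cells (21 genes, 0.47), dendritic cells and MHC class II (18 genes, -0.23), mast cells, basophils and eosinophils (22 genes, 1.02, but 0.01 without deficient replicate 2) and stroma and endothelium (15 genes, 0.33) had no called member. Hdc, which makes histamine, had a difference of 4.21 ± 0.80 (SE, limma adjusted p = 0.107), and Fcer1a, a chain of the IgE receptor, of 4.66 ± 1.03 (adjusted p = 0.208). Among 23 chemokine genes, 0 were called. Ccl6 was highest (4.11 ± 0.71, adjusted p = 0.0673), and Ccl3, which encodes an inflammatory chemokine, was lowest, at 4.98 and 5.55 in wild type and 3.52 and 0.15 in deficient cells (-3.43 ± 0.99, adjusted p = 0.436). Of the atypical chemokine receptors only Ackr1 itself was above the filter.

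In all, 20 named calls lay in no list. Rhou, a small GTPase, read -6.59 and -6.35 in wild type and 0.82 and 1.04 in deficient cells (7.40 ± 0.84, SE, limma adjusted p = 0.0112), at least 103-fold higher. Ifitm6, an interferon-induced transmembrane family member, read -4.26 and -2.39 against 4.60 and 3.09 (7.17 ± 0.81, adjusted p = 0.0112). Mogat2, an acyltransferase of diacylglycerol synthesis, read -6.59 and -5.44 against 0.91 and 0.07 (6.50 ± 0.72, adjusted p = 0.0112). In each the deficient arrays agreed within 1.6. C3, the central complement component, rose by 5.48, and Lrg1, a leucine-rich glycoprotein, by 6.13. The ficolin gene Fcnb (5.43), the arginase gene Arg2 (4.76), the cytokine gene Il1f9 (4.47), the phospholipase gene Pla2g7 (5.42), the lipid transporter gene Abca13 (5.51), Cdr2 (6.41), Slfn14 (4.60), Apol10a (5.64) and Tmem178 (3.92) were called but were not well above background on deficient replicate 2, so their level on that array is not measured. The others were the lectin gene Itln1 (5.71), the amino acid transporter gene Slc38a5 (6.19), Tent5c (4.62), Apol10b (5.41), Inpp5j (5.47) and Gm9733 (5.43), which were well above background on both deficient arrays.

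On the lower side no feature passed: the smallest adjusted p was 0.164, and 949 features had an unadjusted p under 0.05 (limma). The named genes with the smallest p were Dusp23, Cradd, Tmem258, Rps28, Ost4, Ccl3, Psenen, Mcee, Dpm3 and Cenpx, with differences of -3.88 to -2.15 and adjusted p of 0.298 to 0.450. Rps28, a protein of the small ribosomal subunit, was read alike by the arrays of a genotype: 8.67 and 8.78 in wild type and 6.64 and 6.51 in deficient cells (-2.15 ± 0.62, SE, adjusted p = 0.436; -2.08 without deficient replicate 2). Rpl27, of the large subunit, read 7.84 and 7.87 against 5.74 and 5.57, and Ndufb2, a subunit of respiratory complex I, read 3.18 and 3.47 against 1.32 and 1.31. In these 3 genes the ranges did not overlap and the deficient arrays, the weak one included, stood within 0.2 of each other.

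These genes belong to lists that shared a direction without a called member. Of 45 cytosolic ribosomal protein genes, 44 had a difference below 0 and 36 were lower without overlap (background 21.1%), with a median of -1.16, against 0.11 over all features. The median was -1.0 without deficient replicate 2, -1.0 within slide row 1 and -1.20 within row 3. Rps19 had the lowest difference (6.42 and 7.57 against 4.86 and 2.26). The 46 genes of the respiratory chain and ATP synthase all had a difference below 0, 39 without overlap, with a median of -1.33 (-1.05 without deficient replicate 2). The proteasome (34 genes, 33 below 0) had a median of -1.09, and -0.59 without that array. The mitochondrial ribosome (33 genes, 32 below 0) had a median of -1.16, and -0.61 without it.

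In other groups the lower values came largely with the weak array. Heat shock proteins (23 genes) had a median of -1.11, and -0.17 without deficient replicate 2, and glycolysis (21 genes) had -1.02 and -0.31. Interferon response genes (28 genes, 25 below 0) had a median of -0.86, and -0.24 without that array. The 31 DNA replication genes had a median of -0.80 that became 0.09, and the 29 mitosis genes one of -0.37 that became 0.44. Deficient replicate 1 alone thus placed 25 of the 29 mitosis genes above the wild-type mean. Of the 31 DNA replication genes it placed only 16 above. Deficient replicate 2 placed most genes of both lists below that mean, with 5 mitosis and 8 replication genes above it. The median of each list with and without that array is given in the plot of list medians.

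The remaining lists had no called member either. Immediate early genes (24 measured) had a median of -0.92, NF-kB and inflammatory mediators (20) of -0.90, the BCL2 family (18) of -0.64, DNA methylation and Polycomb genes (21) of -0.56, D cyclins and CDK inhibitors (14) of -0.53, Hox genes (19) of -0.13 and myeloid cytokine receptors (20) of 0.04. Without deficient replicate 2 these medians lay between -0.38 and 0.12. In the inflammatory list Il1b, which encodes interleukin-1 beta, was highest, at -5.36 and -3.95 in wild type and 1.07 and -1.92 in deficient cells (4.23 ± 1.14, SE, limma adjusted p = 0.381). The Ifi200 genes, interferon-inducible neighbours of Ackr1 on chromosome 1, had a median of 0.20 over 8 measured genes, and 1.17 without that array. Ifi202b read -4.34 and -5.24 against 0.17 and -1.72 (4.02 ± 1.00, adjusted p = 0.300), and Ifi208 2.29 and 2.46 against 1.51 and -0.60. The family thus held differences in both directions, none past the test.

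**Figure D4:**
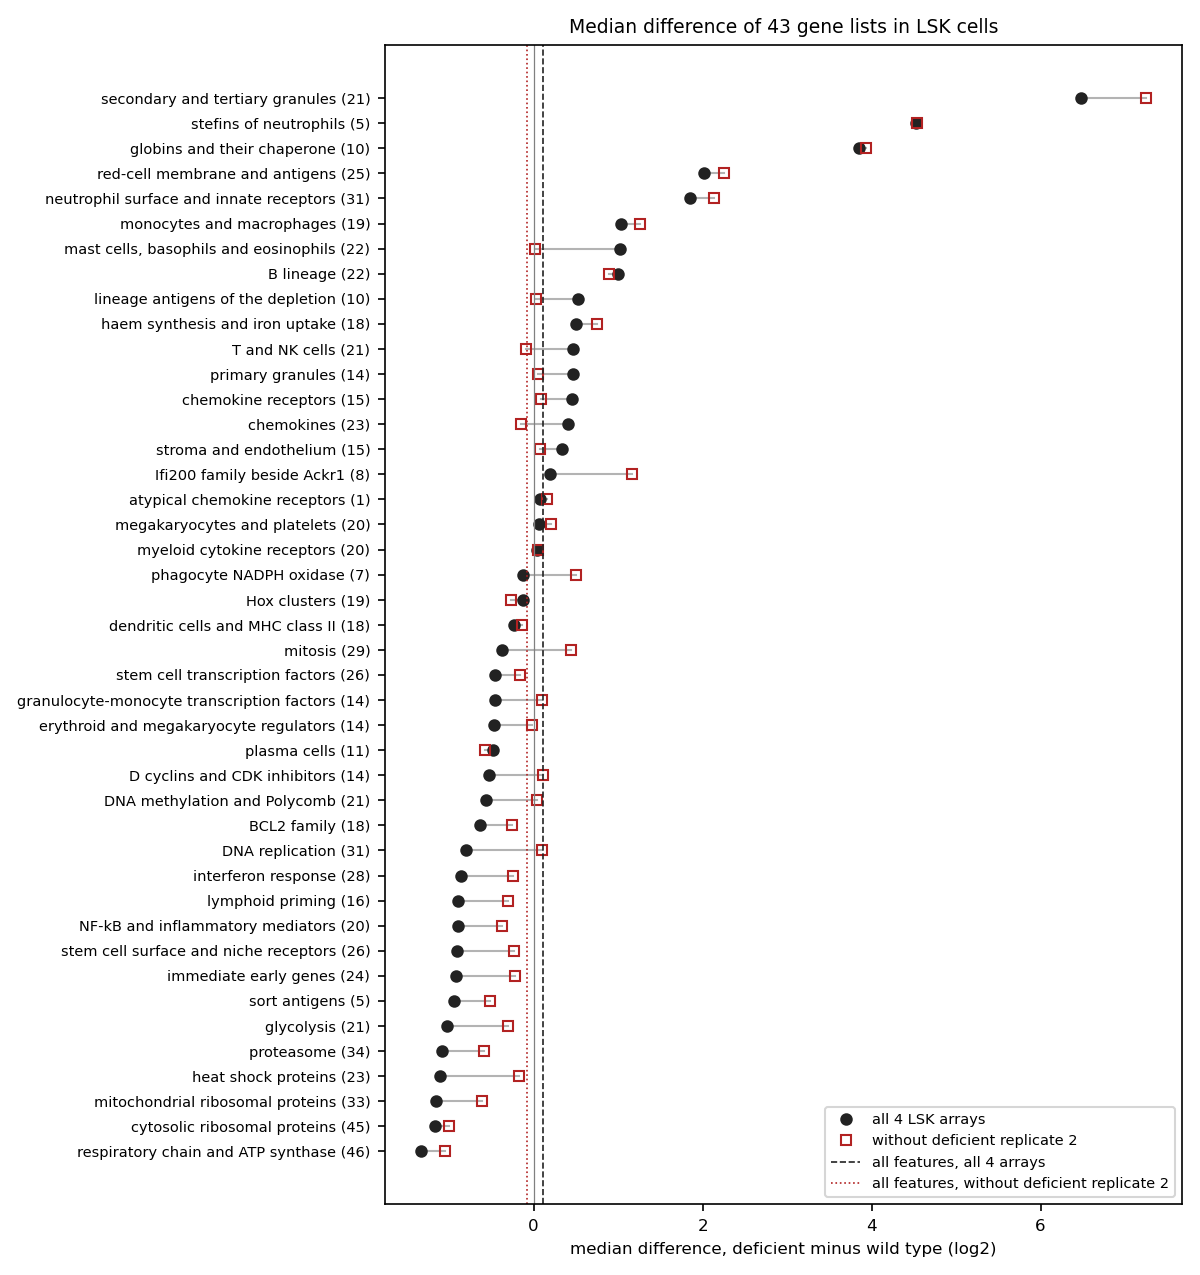
Median difference (deficient minus wild-type LSK, log2 scale) of each gene list, with all 4 arrays and without deficient LSK replicate 2, beside the median over all features. Secondary and tertiary granule genes lie at 6.48 and 7.24, and ribosomal protein genes at -1.16 and -1.0.

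Genes that define stem and multipotent cells showed no call. Of 26 stem cell transcription factors, 19 had a difference below 0, 13 were lower without overlap (background 21.1%) and the median was -0.45 (-0.16 without deficient replicate 2). Of 26 surface and niche receptors of stem cells, 19 were below 0 and 11 lower without overlap, with a median of -0.90 (-0.23). Procr, a marker of long-term stem cells, read 3.36 and 2.92 in wild type and 2.23 and 1.73 in deficient cells, without overlap, and did not pass the test (limma adjusted p = 0.593). Meis1, a homeobox factor, read 5.85 and 5.55 against 5.52 and 3.71. Lymphoid priming genes (16 measured) had a median of -0.90 (-0.31). Dntt, the template-independent DNA polymerase of lymphoid progenitors, read 7.31 and 7.11 against 6.38 and 6.08, and Satb1 2.93 and 3.79 against 2.56 and -0.11. In the fit without deficient replicate 2, the lower genes with the smallest p included replication-dependent histones that were low on deficient replicate 1 alone, for example H2ac22 at 8.95 and 8.94 in wild type and 6.66 and 8.95 in deficient cells.

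GMP of the same genotypes gave 41 features called higher (0.146% of 28078) and 0 lower (limma; 1355 at an unadjusted p under 0.05). Of the 67 LSK calls, 28 were also among the 41, and 60 had a GMP difference above 0. The median GMP difference was 4.56 over the 67 and 0.16 over all features. In 48 of the 67 the LSK difference was the larger, which a choice of features by a high LSK difference favours. The LSK and GMP contrasts share no arrays, but the variance estimate of the fit is common to both. Camp was -2.97 and -2.17 in wild-type and 10.25 and 7.48 in deficient GMP, and Ltf -4.50 and -4.05 against 3.89 and 5.69. Hbb-bt was -1.68 and 0.19 against 9.47 and 8.48. These genes were thus higher in both deficient populations, without overlap. Deficient GMP replicate 1 stood apart from the other GMP arrays, with which it correlated at r = 0.860 to 0.898. Those arrays correlated with one another at 0.964 to 0.976. All GMP values here include deficient GMP replicate 1. The median difference of the granule list was 5.29 in GMP, that of the globins 5.21 and that of the red-cell membrane 2.94. That of the ribosomal proteins was 0.35, against -1.16 in LSK.

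A test of the difference between the LSK and GMP effects called 0 features (limma; 695 at an unadjusted p under 0.05, smallest adjusted p 0.632). The genes with the smallest p included several that were higher in wild-type GMP than in wild-type LSK. Cebpe, low in wild-type LSK, read 5.04 and 4.70 in wild-type and 4.95 and 4.46 in deficient GMP, so that the effects differed by 5.10 (unadjusted p = 0.000208, adjusted p = 0.650). C3 read 5.66 and 5.47 against 5.74 and 5.13 in GMP (effects differing by 5.6, adjusted p = 0.632), and Hp 6.90 and 6.83 against 6.93 and 6.58 (by 6.23, adjusted p = 0.632). Levels of these 3 genes in deficient LSK (3.52 to 5.41) lay between those of wild-type LSK and wild-type GMP. Mogat2, Inpp5j, Gm9733 and Tmem178 also had higher levels in wild-type GMP than in wild-type LSK and called differences in LSK alone. In the opposite direction, Jchain, the immunoglobulin joining chain, read 3.91 and 4.84 against 3.80 and 1.34 in LSK but -5.53 and -5.77 against 1.32 and 0.18 in GMP (-8.20, adjusted p = 0.632), and Pdzk1ip1 and Wfdc17 likewise differed with a higher level in deficient GMP. No gene passed the test, so none is shown to respond differently in LSK.

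**Figure D5:**
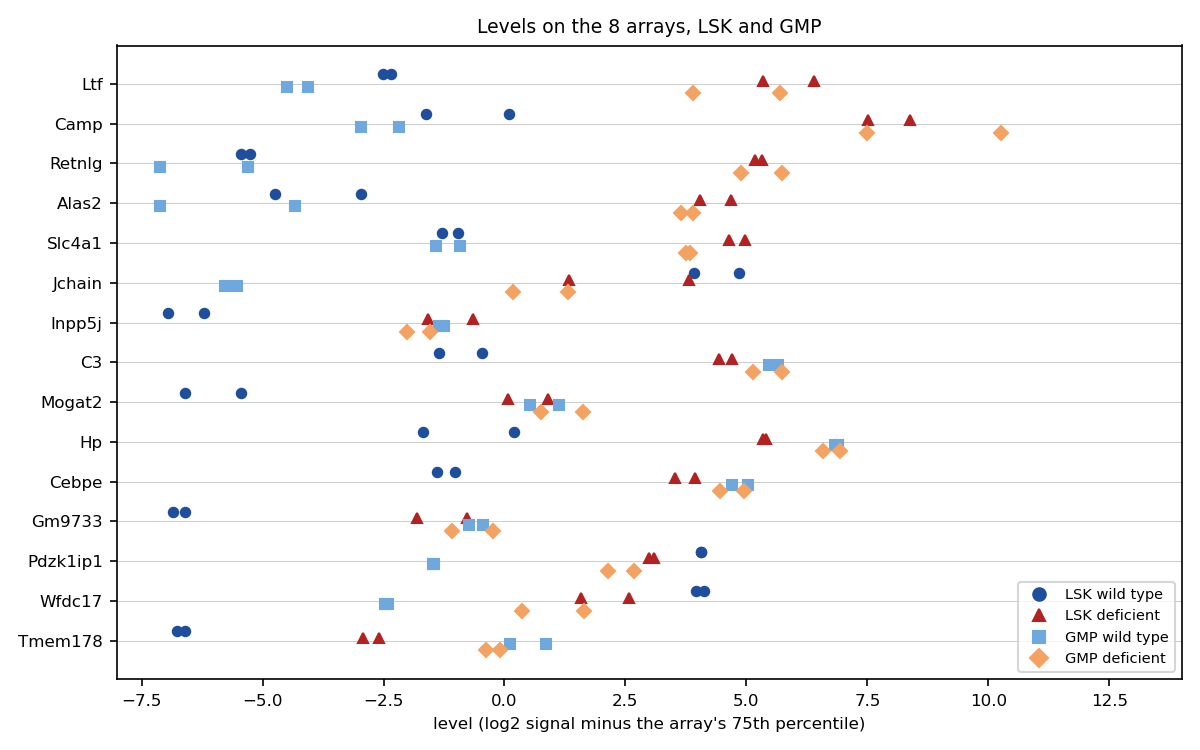
Levels (log2 signal minus the 75th percentile of the array) on the 8 arrays for 5 genes called in LSK and for the 10 genes with the smallest p for a difference between the LSK and GMP effects, with a symbol for each population and genotype. Ltf, Camp, Retnlg, Alas2 and Slc4a1 are higher on deficient arrays of both populations, while Cebpe, C3 and Hp separate by genotype in LSK and overlap in GMP.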

How the data were processed

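RNA of 8 sorted samples was hybridised to 1-colour Agilent arrays after Cy3 labelling with a low-input amplification. The deposited scanner files hold each spot's processed intensity, corrected for background by Agilent Feature Extraction 10.7.3.1 per the file headers; the labels and headers name no later step by the authors. The authors' deposited value table holds log2 values, which matched log2 processed signals after subtraction of the 75th percentile and of each probe's median (r of at least 0.9997), so its scale, centring and direction are known. Its column medians in LSK were 0.12 and -0.26 for wild type, then 0.041 and 1.24 for deficient cells.

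The log2 processed signal minus each array's 75th percentile over non-control spots was used. Outlier spots were left out, spots of a probe averaged, and a probe was retained where both arrays of any group measured it well above background. Accessions were matched to RefSeq symbols (26582 of 55681 probes). A gene was represented by its brightest probe, giving 28078 features. The test was limma (version 3.58.1, R 4.3.3) on 4 group means (4 residual and 5.76 prior degrees of freedom), which was tested on simulated data first. Each group had 2 arrays, which limits the precision.

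The 43 gene lists (803 genes measured of 896) and the comparison itself were chosen with earlier results of these data known. Genes named are the called ones (all arrays' values for the 20 largest differences), the 10 with the smallest p or widest gap on the lower side, the extremes of each list, the sort and lineage antigens and the 10 with the smallest p for the LSK-GMP difference; others were added after their values were seen, and some genes under this rule are not reported here. Alternatives were other scalings, background correction, filters, probe choice, array weights, an intensity trend, the authors' table, blocks and each LSK array left out. A check of same-numbered arrays gave correlations of deviations of -0.344 in LSK and 0.262 in GMP.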

Additional observations from a re-analysis of the deposited data

How the results depend on the processing

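All 52 called genes kept a difference above 0 in each of the 18 alternatives to the main processing that measured them. The filter on all 4 LSK arrays left out most of these genes, such as Mmp8 and Alas2. The genes were called for high values on these same arrays, so a difference above 0 is partly set by the selection. Of 43 list medians, 23 kept 1 sign. Calls moved more. Features called higher (67) numbered 2 with scaling by the median, 27 with quantile normalization, 27 with normexp, 6 with no filter, 18 with the filter on all 4 LSK arrays, 1 with array weights and 37 with the weak LSK array and deficient GMP replicate 1 omitted together (21 of them shared). They were 0 to 1693 when an LSK array was left out, and those called lower (0) 0 to 1133. Granule calls (13) were 2 with scaling by the median, 4 with no filter, 7 with the stricter filter, 1 with array weights, and 0 to 16 when an array was left out. Red-cell membrane calls (6) were 0 with scaling by the median, 2 with quantile normalization, 2 with normexp, 1 with no filter, 1 with the stricter filter, 0 with array weights, 3 in the authors' table, and 0 to 11 when an array was left out. Without deficient replicate 2 (0 called), normexp gave 46 higher, and a fit to the LSK arrays alone 262 higher and 30 lower; array weights were not run there. The cause was not tested, other than that the filters change the number of features tested. Replicate numbers did not pair the arrays, and the replicate block gave 451 higher and 28 lower, 14 features for the LSK-GMP difference, 12 red-cell calls, and 186 higher and 21 lower without deficient replicate 2. The crossed pairing in LSK, an alternative chosen after seeing the data, gave 581 higher, 46 lower, 2 for the difference and 12 red-cell calls, and 523 and 56 without that array. The median over all features ran from -0.46 (median scaling) to 0.55 (no filter). Signal over background limits the genes that are below it in wild type.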
